A study of Rattus norvegicus with 9 samples.

Results

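The growth hormone and insulin-like growth factor (IGF) axis was followed in rat liver through 10 genes: the hormone Igf1, its carriers Igfals, Igfbp1, Igfbp2 and Igfbp3, the growth hormone receptor Ghr, the transcription factor Stat5b, and the feedback inhibitors Socs2, Socs3 and Cish. The members were the genes to which the RefSeq accession of a probe pointed, among 13438 genes named in this way on the array. All 10 were found, by 14 probes, and all 10 passed the filter on dim probes, as did 9604 of the named genes. Liver RNA was measured on one-colour Agilent arrays, 1 array per rat, in 3 groups of 3 male Wistar rats: normal controls, rats 24 h after 6.5 Gy of total-body irradiation (TBI) at 2 Gy/min from a cobalt source, and rats given Hong Shan Capsule (HSC), a preparation of medicinal herbs, through the stomach on the 3 days before the same irradiation. The sample labels give the HSC dose as 30 mg/kg/day and the design text of the series as 10 g/kg/day, and the dose entered no calculation. No array held a rat given HSC alone, and the labels name no vehicle for the other groups, so that a difference between HSC+TBI and control holds the effect of both treatments.

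Growth hormone is released in pulses by the pituitary and binds its receptor on hepatocytes, where the kinase Jak2 activates Stat5b, which enters the nucleus and drives transcription of Igf1, Igfals, Socs2 and Cish. Most IGF-I in blood comes from the liver and circulates in a complex with Igfbp3 and the acid-labile subunit encoded by Igfals, which keeps it from leaving the vessels. Igfbp1, in contrast, is a short-lived carrier whose gene is held down by insulin and switched on by fasting, glucocorticoids and cell stress. Socs2, Socs3 and Cish belong to the suppressors of cytokine signalling, which are induced by the signal that they then dampen.

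At 24 h after TBI, Igfbp1 rose 6.04-fold and Igfals fell 2.10-fold, while the brightest probes of the other 8 genes did not pass the test. A probe was called at an adjusted p under 0.05 by limma (Benjamini-Hochberg over the 25369 tested probes) and a fold change of at least 1.5. By this rule 2 of the 10 members were called, 1 in each direction, where 7.79% of the 9604 named genes were called (3.87% higher and 3.92% lower). After HSC+TBI none of the 10 was called against control, where 3.88% of the named genes were, and none against TBI, where 0.791% were. All signals below, apart from sums of cell markers, are log2 normalized signals of 1 probe. They can be compared between rats and not between genes. Differences are log2 fold changes with their standard error (SE).

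**Figure D1:**
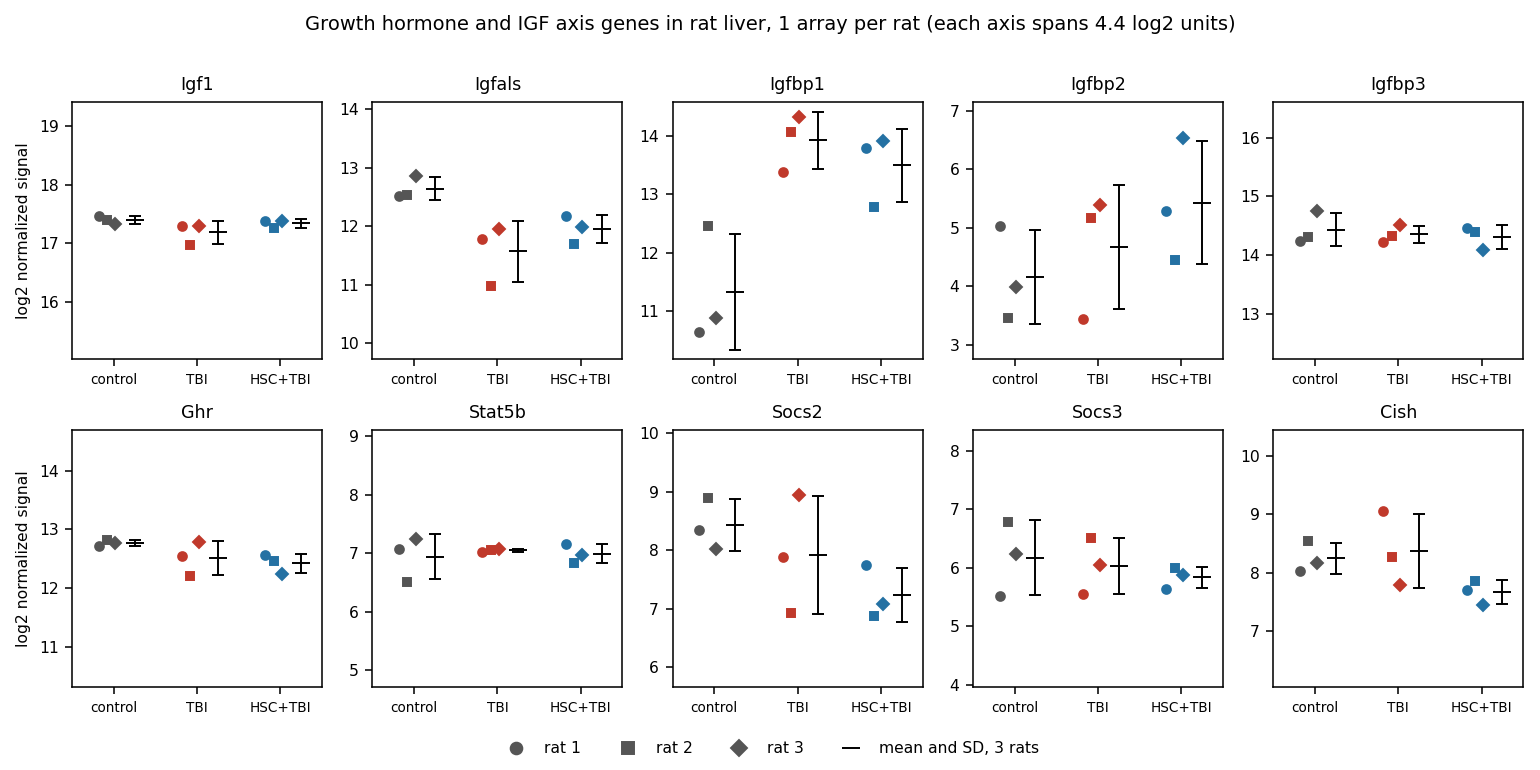
Log2 normalized signal of the brightest probe of each of the 10 genes (vertical axis, spanning 4.4 units in every panel) in the 3 rats of each group, with the mean and SD beside the points. Equal rat numbers were taken not to pair rats across groups. In the 6 irradiated rats Igfbp1 was 12.78 or higher and Igfals 12.18 or lower, outside the control ranges.

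The hormone itself was not called by either of its probes. The brighter of the 2 Igf1 probes (gene ID 24482), which was designed on another Igf1 transcript than the second, read 17.47, 17.40 and 17.34 in the controls, 17.30, 16.97 and 17.30 after TBI, and 17.37, 17.26 and 17.39 after HSC+TBI. Every TBI rat lay below every control, with rat TBI 2 the lowest of all, and the HSC+TBI rats overlapped both groups. The difference of TBI from control was -0.21 (SE 0.12, 95% confidence interval -0.50 to 0.07, adjusted p = 0.322), and that of HSC+TBI from control was -0.06 (SE 0.12, adjusted p = 0.841).

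The second Igf1 probe read 14.48, 14.06 and 14.15 in the controls, 13.61, 13.28 and 14.26 after TBI, and 14.10, 13.70 and 13.74 after HSC+TBI. Rat TBI 3 was as high as the controls on this probe, and so the groups overlapped. Its difference after TBI was -0.51 (SE 0.25, adjusted p = 0.241), with an interval from -1.08 to 0.06 that includes the value of the brighter probe. Without rat TBI 3 the second probe was called at -0.78. By the mean of both probes the TBI difference was -0.36 (SE 0.175, adjusted p = 0.237).

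Igfals, the acid-labile subunit of the circulating complex, was the member that fell. Its signals were 12.52, 12.54 and 12.87 in the controls, 11.78, 10.98 and 11.95 after TBI, and 12.18, 11.70 and 11.99 after HSC+TBI. No irradiated rat reached the lowest control, rat TBI 2 was the lowest of the 9, and the 2 irradiated groups overlapped. The fall after TBI was called (-1.07, SE 0.26, interval -1.65 to -0.49, adjusted p = 0.0393).

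After HSC+TBI the Igfals difference from control was -0.69 (SE 0.26, adjusted p = 0.188), and that from TBI was 0.38 (SE 0.26, interval -0.20 to 0.97, adjusted p = 0.501). The call after TBI sat close to the threshold. It was lost when any single control, TBI 1, TBI 2, HSC+TBI 1 or HSC+TBI 3 was left out (adjusted p up to 0.129), with the difference between -1.26 and -0.77 over all 9 omissions.

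Igfbp1, the carrier that responds to fasting and stress, gave the largest difference among the members in both comparisons with control. Its signals were 10.65, 12.46 and 10.89 in the controls, 13.39, 14.07 and 14.33 after TBI, and 13.79, 12.78 and 13.91 after HSC+TBI. Control 2 stood well above the other controls and close below the lowest irradiated rat, HSC+TBI 2, and neither irradiated group overlapped the controls. The rise after TBI was 2.60 (SE 0.51, interval 1.44 to 3.75, adjusted p = 0.0191).

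After HSC+TBI the Igfbp1 difference from control was 2.16 (SE 0.51, 4.48-fold, adjusted p = 0.06), just short of the threshold, and the difference between the irradiated groups was -0.43 (SE 0.51, interval -1.59 to 0.72, adjusted p = 0.711). Control 2 bore on both comparisons: without it the HSC+TBI difference was called at 2.73. Leaving out control 1, control 3 or TBI 2 ended the call after TBI (adjusted p up to 0.0754), and the rise lay between 2.25 and 3.16 over all omissions.

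**Figure D2:**
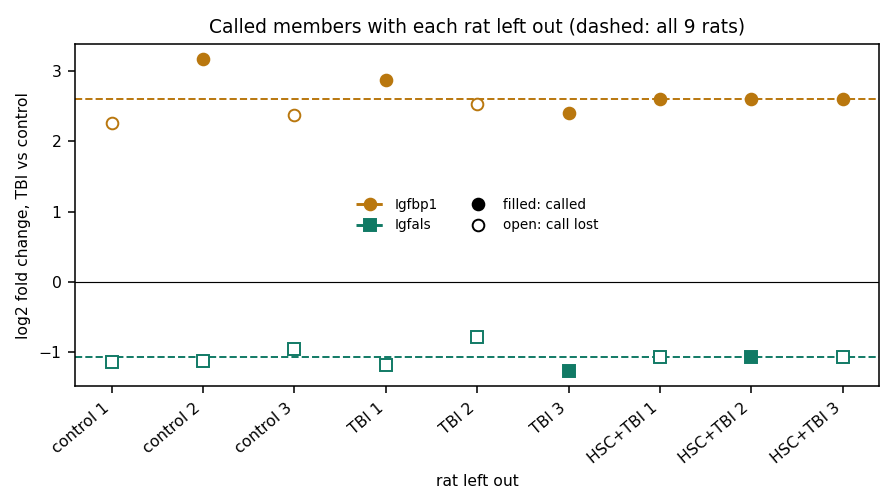
Log2 fold change of TBI against control (vertical axis) for Igfbp1 and Igfals with the rat named on the horizontal axis left out; dashed lines are the values with all 9 rats, and open symbols are fits in which the call was lost. Igfbp1 stayed between 2.25 and 3.16 and lost its call without 3 rats, and Igfals stayed between -1.26 and -0.77 and lost its call without 7.

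The promoters of both called genes are shown with that of Cish, so that they can be searched for letters to which factors of growth hormone and insulin signalling are known to bind. Each is the 250 bases before the start of transcription in the RefSeq sequence of build GRCr8, read in the direction of the gene. Capitals mark matches, on either strand, to TTCNNNGAA (the core bound by Stat factors) and CAAAACA (the insulin response element, bound by forkhead factors).
Igfbp1: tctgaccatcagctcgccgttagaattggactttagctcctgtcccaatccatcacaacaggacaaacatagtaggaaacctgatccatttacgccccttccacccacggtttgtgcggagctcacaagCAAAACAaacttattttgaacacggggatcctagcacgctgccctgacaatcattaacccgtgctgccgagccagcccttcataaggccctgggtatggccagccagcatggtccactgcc
Igfals: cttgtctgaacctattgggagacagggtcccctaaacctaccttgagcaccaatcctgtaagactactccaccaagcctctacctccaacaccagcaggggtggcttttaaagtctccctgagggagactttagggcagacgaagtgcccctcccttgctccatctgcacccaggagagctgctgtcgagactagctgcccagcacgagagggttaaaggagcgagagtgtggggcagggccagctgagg
Cish: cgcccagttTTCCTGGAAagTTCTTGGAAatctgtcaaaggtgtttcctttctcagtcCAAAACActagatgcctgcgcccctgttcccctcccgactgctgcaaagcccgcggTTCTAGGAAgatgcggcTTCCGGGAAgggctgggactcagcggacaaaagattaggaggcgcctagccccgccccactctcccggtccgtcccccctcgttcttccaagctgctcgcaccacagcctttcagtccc
They lie on the plus strand at chr14:86261027-86261276, chr10:14403600-14403849 and chr8:116850719-116850968.

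The Igfbp1 window held 1 match to CAAAACA, which begins 121 bases before the start, and no match to TTCNNNGAA. In the Igfals window there was no match to either. The Cish window held 4 matches to TTCNNNGAA, beginning 241, 230, 136 and 119 bases before the start, and 1 to CAAAACA. Over the windows of all 33469 promoters in the table, 7.67% held TTCNNNGAA, 5.46% held CAAAACA and 3.21% held GTAAACA, a forkhead site that no member's window held. Windows were at hand for 9 of the 10 members, the exception being Socs2. Besides Cish, only Igf1 and Igfbp1 had a match to CAAAACA, and no other member of the 9 had one to TTCNNNGAA. Bases outside these windows were not searched, so a window without a match does not mean a gene without a site.

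Igfbp2, a carrier that the liver makes mainly before birth and in fasting, was near background and scattered. It read 5.03, 3.46 and 3.98 in the controls, 3.45, 5.16 and 5.40 after TBI, and 5.29, 4.45 and 6.54 after HSC+TBI, and was not well above background in control 2. All groups overlapped. Its differences from control were 0.51 after TBI (SE 0.67, adjusted p = 0.676) and 1.26 after HSC+TBI (SE 0.67, interval -0.27 to 2.80, adjusted p = 0.344), so that changes of several fold in either group could not be resolved.

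Igfbp3, the main carrier in blood, neighbours Igfbp1 in the genome, with no other annotated gene between them and the opposite direction of transcription. Its brighter probe ranged from 14.24 to 14.75 in the controls, from 14.23 to 14.51 after TBI and from 14.08 to 14.46 after HSC+TBI. The differences from control were -0.08 after TBI (SE 0.17, interval -0.47 to 0.32) and -0.13 after HSC+TBI (SE 0.17, interval -0.52 to 0.27), with adjusted p = 0.807 and 0.742. Its second probe gave -0.27 and -0.26 (SE 0.21 each), also not called. Beside the 2.60 of Igfbp1, the interval of Igfbp3 left room for no change of that size.

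For the receptor Ghr (gene ID 25235) the probes differed in their calls, though all 3 were designed on the same transcript. The brightest read 12.72, 12.82 and 12.77 in the controls, 12.54, 12.20 and 12.78 after TBI, and 12.56, 12.46 and 12.25 after HSC+TBI. Rat TBI 3 lay within the control range on it, and every HSC+TBI rat lay below the controls. It was not called after TBI (-0.26, SE 0.16, adjusted p = 0.351) or after HSC+TBI (-0.34, SE 0.16, adjusted p = 0.286). By the mean of the 3 probes the TBI difference was -0.50 (SE 0.12, adjusted p = 0.0359), short of the minimum fold change.

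The dimmest Ghr probe read 9.32, 9.30 and 9.57 in the controls, 8.94, 8.81 and 8.46 after TBI, and 8.86, 8.89 and 9.08 after HSC+TBI. Here rat TBI 3 was the lowest of the 9, and both irradiated groups lay below the controls. The difference after TBI was called (-0.66, SE 0.15, adjusted p = 0.0361), and that after HSC+TBI was -0.45 (SE 0.15, adjusted p = 0.156). This call was lost with the omission of any rat but TBI 1, with values between -0.76 and -0.52.

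The third Ghr probe read 11.41, 11.25 and 11.05 in the controls and 11.05, 10.65 and 10.27 after TBI, with a difference of -0.58 (SE 0.19, adjusted p = 0.103) that was called at -0.78 without rat TBI 1. After HSC+TBI it read 11.03, 11.05 and 11.10, and differed from TBI by 0.40 (SE 0.19, interval -0.04 to 0.84, adjusted p = 0.349). All 3 probes gave a lower mean after TBI than in the controls, and the order of the TBI rats was not the same on them.

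**Figure D3:**
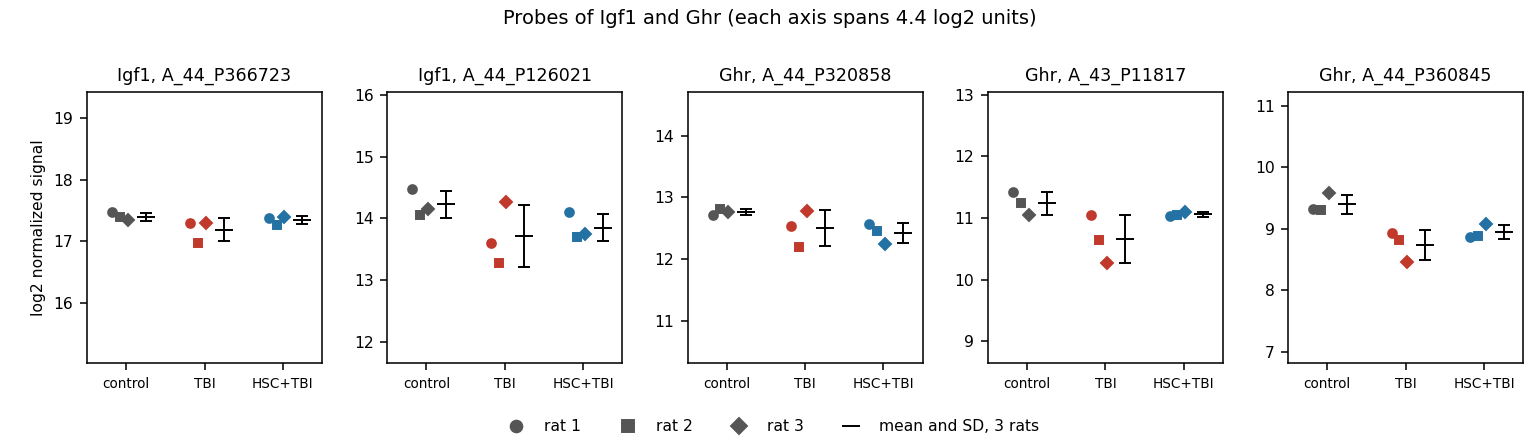
Log2 normalized signal of each probe of Igf1 and Ghr (vertical axis, spanning 4.4 units in every panel) in the 3 rats of each group, with mean and SD beside the points. Rat TBI 3 lies highest of its group on the second Igf1 probe and on the brightest Ghr probe, and lowest on the other 2 Ghr probes.

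Stat5b, which carries the receptor's signal to the nucleus, showed little movement. Its signals ran from 6.50 to 7.23 in the controls, from 7.02 to 7.07 after TBI and from 6.84 to 7.16 after HSC+TBI, with both irradiated groups inside the control range. The difference after TBI was 0.11 (SE 0.19, interval -0.32 to 0.54, adjusted p = 0.745) and that after HSC+TBI was 0.06 (SE 0.19, adjusted p = 0.905).

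Among the feedback inhibitors none was called, and Socs2 and Cish read lowest in the rats given HSC. Socs2, the suppressor that most restrains growth hormone action, read 8.35, 8.90 and 8.02 in the controls, 7.89, 6.94 and 8.95 after TBI, and 7.76, 6.88 and 7.08 after HSC+TBI. The TBI rats overlapped both other groups, whereas all HSC+TBI rats lay below all controls. Its difference from control was -0.50 after TBI (SE 0.48, adjusted p = 0.55) and -1.19 after HSC+TBI (SE 0.48, interval -2.28 to -0.09, adjusted p = 0.218). The TBI difference rested on single rats, being -0.00715 without TBI 2, -0.26 without control 2 and -1.01 without TBI 3.

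Cish, the Stat5 target whose window held the 4 matches, read 8.03, 8.54 and 8.17 in the controls, 9.05, 8.27 and 7.79 after TBI, and 7.71, 7.85 and 7.44 after HSC+TBI. TBI 1 was the highest of the 9 rats and TBI 3 overlapped the HSC+TBI rats. HSC+TBI differed from control by -0.58 (SE 0.30, adjusted p = 0.326) and from TBI by -0.70 (SE 0.30, interval -1.38 to -0.03, unadjusted p = 0.0434, adjusted p = 0.289).

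Socs3, which interleukin 6 and related cytokines induce as well as growth hormone, was dim. It ranged from 5.51 to 6.78 in the controls, from 5.54 to 6.50 after TBI and from 5.63 to 5.99 after HSC+TBI, so that both irradiated groups lay within the control range. Its differences from control were -0.14 after TBI (SE 0.34, interval -0.91 to 0.62) and -0.34 after HSC+TBI (SE 0.34, interval -1.10 to 0.43), with adjusted p = 0.824 and 0.63.

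**Figure D4:**
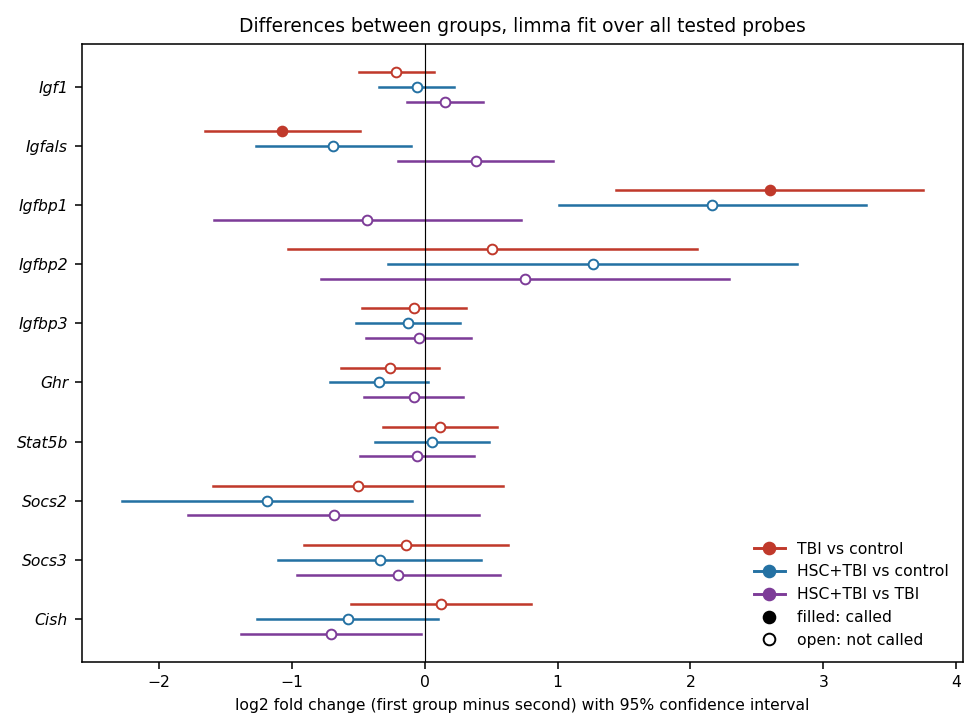
Log2 fold change (horizontal axis, first group minus second) of the brightest probe of each gene in the 3 comparisons, with 95% confidence intervals from limma; filled circles were called. Only Igfals (-1.07) and Igfbp1 (2.60) were called, both for TBI against control, and all 10 intervals for HSC+TBI against TBI except that of Cish include 0.

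Read together, the members did not move as a block. After TBI the mean was above that of the controls for 4 of the 10 brightest probes and below it for 6, with a median difference of -0.11 where that of all named genes was 0.01. After HSC+TBI 3 means were above and 7 below those of the controls (median -0.23, all named genes 0.02), and the same split was seen against TBI (median -0.07, all named genes 0.02).

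Looser rules gave counts close to those of other genes. After TBI 2 members had an unadjusted p under 0.05, where 26.1% of the named genes did, and 3 (Igf1, Igfbp1 and Igfals) had groups that did not overlap, where 29.9% did. For HSC+TBI against control the counts were 3 (Igfbp1, Igfals and Socs2) where 21.9% of the named genes had such a p, and 5 (Igfbp1, Ghr, Igfals, Cish and Socs2) where 34.5% did not overlap. Against TBI, 1 member had such a p where 15.0% did, and none had groups that did not overlap, where 21.3% did. Both comparisons with control used the same 3 controls, so their counts are not independent.

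Within the irradiated groups some members ranked the rats alike, an observation made after their values were seen. On the second Igf1 probe, Igfals and Socs2, all known Stat5b targets, rat TBI 3 was highest and TBI 2 lowest, and HSC+TBI 1 was highest and HSC+TBI 2 lowest. The brighter Igf1 probe had the same lowest rats, but TBI 1 and HSC+TBI 3 were the highest on it. Cish, also a Stat5b target, ranked TBI 1 highest and TBI 3 lowest, and HSC+TBI 2 highest. Igfbp1 and Igfbp2 shared a different order, with TBI 3 highest and TBI 1 lowest, and HSC+TBI 3 highest and HSC+TBI 2 lowest. Shared orders were thus not particular to the Stat5b targets. The controls kept no such order, and how many other genes shared an order was not counted.

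Among 8534 other named genes above background on all 9 arrays, the profiles closest to the brighter Igf1 probe were those of Pfkfb1 (Pearson r = 0.986), which makes and breaks down a regulator of liver glycolysis, Plekhj1 (0.944) and Ogt (0.941), an enzyme that adds N-acetylglucosamine to proteins. Closest to Igfbp1 were Chac1 (0.985), a glutathione-degrading enzyme of the amino acid stress response, Btg2 (0.964), an antiproliferative p53 target, and Apold1 (0.958). These values describe 9 arrays that include the group differences, and they were picked as the highest of many.

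The wider IGF system was measured by 8 tested genes of a list of 15, and only Igf2 was called. Igf2, the fetal growth factor that adult rat liver makes little of, read 7.17, 6.73 and 6.98 in the controls, 5.82, 6.08 and 5.73 after TBI, and 6.26, 6.49 and 6.05 after HSC+TBI. No irradiated rat reached the lowest control. Igf2 fell after TBI by 1.08 on the log2 scale (SE 0.17, adjusted p = 0.00841), and its difference after HSC+TBI was -0.69 (SE 0.17, adjusted p = 0.0676).

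Irs2, the docking protein that relays insulin and IGF-I signals in liver, was not called after TBI by its brightest probe (1.41, SE 0.49, adjusted p = 0.116), while 2 of its other 3 probes were (0.93 and 1.21, adjusted p = 0.0286 and 0.0477). The list had a median difference of -0.33 after TBI and 0.16 after HSC+TBI.

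Of the other genes of receptor and JAK-STAT signalling reported here, 12 were tested, with a median difference of 0.11 after TBI and -0.01 after HSC+TBI. Jak2, the kinase bound to the receptor, read 7.81, 8.41 and 8.02 in the controls, 7.54, 8.44 and 8.45 after TBI, and 7.22, 7.44 and 7.31 after HSC+TBI. All HSC+TBI rats lay below all other rats. Jak2 was not called in any comparison, with -0.76 against control (SE 0.26, adjusted p = 0.153) and -0.82 against TBI (SE 0.26, adjusted p = 0.179).

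Among 14 genes that depend on growth hormone or mark liver identity, 13 were tested and 3 were called after TBI. Cyp2c11, the male-specific cytochrome P450 kept up by pulsed growth hormone, read 17.28, 16.82 and 17.10 in the controls, 16.52, 15.02 and 15.25 after TBI, and 16.01, 15.61 and 16.26 after HSC+TBI. All irradiated rats lay below all controls, and the fall after TBI was called (-1.47, SE 0.37, adjusted p = 0.0454), while the difference after HSC+TBI was not (-1.11, SE 0.37, adjusted p = 0.145). The female-predominant Cyp2c12 ranged from 6.70 to 9.84 in the controls and was not called (1.12 after TBI, SE 0.80, adjusted p = 0.416). No other P450 gene of this list was called lower after TBI. Cyp2c13 differed by -0.08 (SE 0.11), Cyp3a2 by -0.12 (SE 0.19) and Cyp2a2 by 0.17 (SE 0.12), none of them called.

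The other genes called in this list moved upwards after TBI, and how far P450 probes tell close relatives apart was not tested. Cyp4a2, a fatty acid hydroxylase, rose by 2.04 (SE 0.48, adjusted p = 0.0387). Cebpb, a transcription factor of stress and gluconeogenesis, rose by 0.76 (SE 0.18, adjusted p = 0.0356). The list's median difference was -0.08 after TBI and 0.22 after HSC+TBI, and none of it was called after HSC+TBI.

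Bcl6, a transcriptional repressor that growth hormone lowers in liver, had the largest difference in this list and was not called. It read 12.83, 11.69 and 12.47 in the controls, 9.06, 11.57 and 8.58 after TBI, and 12.55, 12.31 and 12.80 after HSC+TBI. TBI rats 1 and 3 were far below the rest, TBI 2 was just under the lowest control, and the HSC+TBI rats overlapped the controls. The difference was -2.59 for TBI against control (SE 0.69, interval -4.16 to -1.03, adjusted p = 0.0548) and 2.82 for HSC+TBI against TBI (SE 0.69, adjusted p = 0.11), and its second probe gave -2.34 and 2.52. Without TBI 2 it was called in both comparisons, and for TBI against control also with normexp background correction and with the stricter filter. The slide block called it in both comparisons too, but its negative correlation within slides lowers the standard errors, so that call adds no weight. All other settings and omissions gave no call for TBI against control.

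Insulin and fasting signalling had 9 tested genes reported here, of which only G6pc1 and Tat were called after TBI. Of the 9, 3 had a mean above the controls after TBI and 6 below. The list's median difference was -0.03 after TBI and 0.34 after HSC+TBI. Pck1 (-0.19, SE 0.18) and Ppargc1a (-0.68, SE 0.41) were among the 6 that were lower after TBI, and neither was called. G6pc1, the last enzyme of glucose release, rose by 0.86 (SE 0.14, adjusted p = 0.0105), and Tat, a tyrosine-degrading enzyme induced by glucocorticoids, rose by 1.53 (SE 0.33, adjusted p = 0.0287). After HSC+TBI the differences were 0.48 and 1.41 by their brightest probes (adjusted p = 0.112 and 0.062), while the second G6pc1 probe was called at 0.74 (adjusted p = 0.036).

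Of 10 cytokines and receptors that can induce Socs3, 7 were tested, 3 with a mean above the controls after TBI and 4 below. Il6 itself was above background on no array. Il1b had the largest difference of the list after TBI and was not called (1.69, SE 0.54, adjusted p = 0.0925). Nor was it called for HSC+TBI against TBI (-2.08, SE 0.54, adjusted p = 0.126). Its second probe gave 1.60 and -1.98, also not called. Il6r, the receptor for interleukin 6, fell by 0.78 after TBI (SE 0.14, adjusted p = 0.0137), from 11.03, 11.26 and 11.10 in the controls to 10.12, 10.48 and 10.43, and read 10.98, 10.78 and 10.71 after HSC+TBI. With each of the 9 rats left out in turn, the TBI calls of Igf2, G6pc1 and Il6r were made in all 9 fits, that of Tat in 5, that of Cyp4a2 in 2, and those of Cyp2c11 and Cebpb in 1 each. In all, 7 of the 49 tested list genes reported here were called after TBI (4 higher and 3 lower), none after HSC+TBI against control, and none against TBI. An unadjusted p under 0.05 was met by 19, 14 and 12 of them in these comparisons. Of all named genes, 26.1%, 21.9% and 15.0% met this p, and 7.79%, 3.88% and 0.791% were called.

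**Figure D5:**
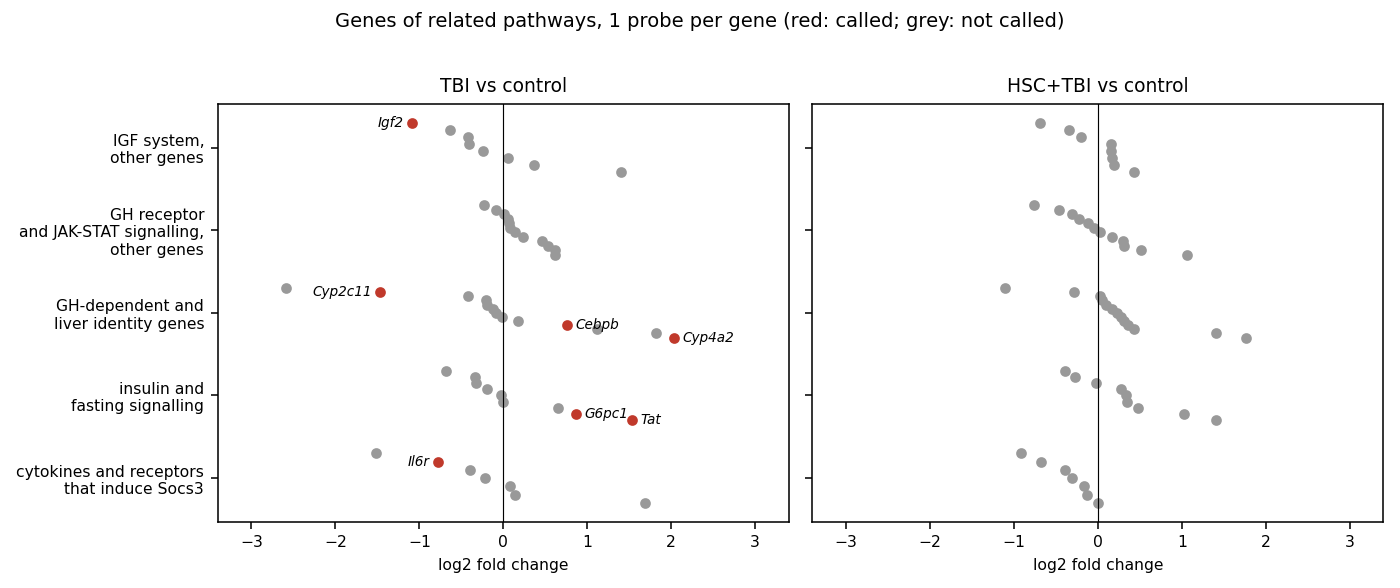
Log2 fold change (horizontal axis) of each tested gene reported here of 5 lists of related pathways, 1 point per gene, for TBI against control (left) and HSC+TBI against control (right); red points with names were called. On the left 7 genes were called, 4 higher and 3 lower, and none of those shown on the right.

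Whole liver holds other cells, and fewer cells of a type cannot be told apart from less RNA per cell. Each sum of markers below is the log2 of their added linear signals, by the brightest probe of each gene. It therefore mostly follows the brightest markers of its list. The summed signal of 6 hepatocyte markers was 20.10 to 20.19 in the controls, 20.03 to 20.19 after TBI and 20.09 to 20.18 after HSC+TBI, and none of them was called. These markers are among the brightest probes, where normalization by quantiles gives every array nearly the same values. Tf, the brightest of them, read 18.1638 in control 1 and in every HSC+TBI rat. The sum could therefore hardly differ, and it does not tell whether the hepatocyte content was the same. The sum of 6 Kupffer cell and macrophage markers, which was 15.50 to 16.03 in the controls and 15.49 to 16.41 after TBI, was 14.98 to 15.10 after HSC+TBI. Each of these 6 markers had a lower mean in HSC+TBI rats than in TBI rats (median -1.14, none called), as Socs2 and Cish had, and their part in those differences was not tested.

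The summed lymphocyte markers (6 genes, 2 of them above background on no array) were 8.90 to 9.32 in the controls, 8.24 to 8.85 after TBI and 8.08 to 8.54 after HSC+TBI. Cd79b of B cells was well above background in the 3 controls and in none of the 6 irradiated rats. It passed the filter through the controls alone, so its lower call in both comparisons with control is not independent of that choice. The size of its fall has no exact value. Lrat of stellate cells was called lower after TBI (-0.63) and not after HSC+TBI (-0.37). It did not stand for its list: of the 6 stellate markers, 4 had a mean above the controls after TBI and 2 below (median 0.16). Endothelial sums (4 genes) ran from 13.62 to 13.92 in the controls, 14.02 to 14.32 after TBI and 13.91 to 14.06 after HSC+TBI, the stellate sums (6 genes) from 11.92 to 12.42 over all rats, and the bile duct sums (2 genes) from 8.41 to 9.32. The part of these cells in the falls of Igfals and Igf2 was not tested.

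The share of probes above background was 56.6% to 59.3% in the controls, 63.6% to 69.5% after TBI and 58.7% to 60.5% after HSC+TBI. Each of the 4 slides held a single group, the controls on slide 1, TBI on slide 2, and HSC+TBI on slides 3 (rats 1 and 3) and 4 (rat 2), so that slide and group cannot be told apart and no comparison within a slide was possible.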

How the data were processed

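Liver RNA of 9 male Wistar rats, 3 per group, was hybridized to one-colour Agilent arrays. Spot and background intensities had been extracted by the authors with Agilent Feature Extraction 10.7.3.1, per the file headers, whose processed signal is background-subtracted. The authors also deposited log2 values normalized by quantiles. The genome build behind the probe annotation was not used.

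Starting from the deposited processed signal, control spots and outlier spots (84 to 115 of 43379 per array) were left out, signals under 1 were set to 1, log2 values were normalized by quantiles in limma 3.58.1 (R 4.3.3), and the spots of each of 41012 probes were averaged. The authors' normalized values differed from these by a median of about 0.03. A probe was above background where more than 0.5 of its spots were flagged well above background, and the test covered the 25369 probes that passed this in every rat of some group. RefSeq accessions named 16968 probes through the gene table of assembly GRCr8. A gene's value was its brightest tested probe by the mean of 9 arrays. Group means were compared in 1 limma fit (lmFit, eBayes), and the fitting was tested on simulated data.

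With 3 rats per group precision is limited, and an exact permutation test cannot go below p = 0.1. P-values weigh a difference against the spread within groups, pooled over the 3 groups and moderated by limma over all tested probes. They do not account for differences between slides that coincide with group. Some list genes are not reported here, and counts over the lists leave them out. Members and lists were chosen with earlier results of these data known. Named genes are all members by every probe, list genes called in a comparison, and the 3 genes closest to Igf1 and Igfbp1. Genes named for other probes, and Cyp2c12, Cyp2c13, Cyp3a2, Cyp2a2, Bcl6, Jak2, Pck1, Ppargc1a, Il6, Il1b, Tf, Cd79b and Lrat, were added after their values were seen. Alternatives were normexp with an offset of 50, a 75th percentile shift, the authors' log2 values, no filter or a stricter one, outlier spots retained, fits of the compared groups alone, no minimum fold change, the methods' t-test, the replicate number or the slide as a block, each rat left out, and the mean of a gene's probes.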

Additional observations from a re-analysis of the deposited data

How the results depend on the processing

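Of 42 log2 fold changes of the 14 probes, all kept their direction and side of the threshold with the authors' values, with outlier spots kept and with no minimum fold change. The members called after TBI (2) became 1 (Igfbp1) with the 75th percentile shift, without the filter on dim probes and in a fit of the compared groups alone, and 0 by the methods' t-test after adjustment. Those called for HSC+TBI against control (0) became 1 (Igfbp1) with the 75th percentile shift and with probes above background on all arrays, 4 (Igfals, Igfbp1, Socs2 and Cish) by the methods' t-test without adjustment, and 3 (Igfals, Igfbp1 and Socs2) with the slide as a random block. For HSC+TBI against TBI (0) the slide block called 1 (Cish). That block rested on a correlation of -0.327 within slides, which lowers the standard errors. With each rat left out, the members called were 0 to 2 (0 without control 1, control 3 or TBI 2), 0 to 1 (1 without control 2) and 0 to 0 in the 3 comparisons.

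The list genes called after TBI (7) became 3 with no filter and with only the compared groups, 0 by the adjusted t-test, 4 with the replicate block and 15 with the slide block, and 3 to 8 with a rat left out (3 without control 3, 4 without control 1, control 2 or any HSC+TBI rat). For HSC+TBI against control (0) they became 2 with the 75th percentile shift, 1 with normexp, with only the compared groups and with the mean of a gene's probes, 7 by the unadjusted t-test and with the slide block, and 0 to 2 with a rat left out (2 without TBI 1, and 1 without control 1 or control 2). For HSC+TBI against TBI (0) they became 2 by the unadjusted t-test, 6 with the slide block and 0 to 5 with a rat left out (5 without TBI 1, 1 without TBI 2).

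Small differences changed sign. With the 75th percentile shift Igf1 and Igfbp3 after HSC+TBI became 0.0545 and 0.0691, and Igfbp3 and Ghr against TBI became 0.0762 and 0.00146. Stat5b after HSC+TBI became -0.00722 with normexp, and Ghr against TBI became 0.18 with the mean of its probes. With single rats left out, signs turned after TBI for Igfbp3 (-0.18 to 0.0796), Socs3 (-0.47 to 0.16), Cish (-0.21 to 0.42) and Stat5b (-0.10 to 0.26), after HSC+TBI for Igfbp3 (-0.22 to 0.0336) and Stat5b (-0.16 to 0.21), and against TBI for Igfbp3 (-0.12 to 0.0688, second probe -0.0951 to 0.14), Ghr (-0.24 to 0.0530), Socs3 (-0.44 to 0.0359), Stat5b (-0.14 to 0.0202) and the second Igf1 probe (-0.0879 to 0.40). The causes were not tested.

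Deviations of rats with equal replicate numbers correlated at 0.191, 0.117 and 0.0975 for TBI with control, above the -0.12 to 0.0173 of unequal numbers, and at -0.143 to 0.0147 for HSC+TBI with either group. Not every pair passed 0.1, and the numbers were taken not to pair rats, though a pairing of TBI with control rats was not excluded. The replicate block left 2, 0 and 0 members called and lost the call of the dimmest Ghr probe (adjusted p = 0.0778).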
